A study of Mus musculus with 4 samples.

Results

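Cyclins, cyclin-dependent kinases (CDKs), the MCM replication helicase and the genes whose symbols begin with Cdc, E2f or Gadd45 were examined in mouse liver RNA-Seq data. They were chosen by gene symbol, with earlier results of these data known, and 61 of the 7000 genes listed in the authors' table were found. Which genes are listed there depends on the authors' comparison of the diets. The annotation of the mm9 assembly holds 109 protein-coding genes with such symbols, so 48 of them were not listed. The share of all annotated genes that is listed was not determined. Counts of listed genes here and below are therefore not read as a trait of these genes. The libraries came from the liver of FVB/N mice, an inbred strain, all male, of which 2 had been fed a selenium-deficient diet (0 Se, with 0 ppm Se added) and 2 a selenium-adequate diet (0.1 Se, with 0.1 ppm Se added). Both groups were wild type and received their diet, with sodium selenite as the added form, for 6 weeks from weaning. Whole liver was sequenced, so fewer cells of a type and less RNA per cell cannot be told apart.

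The values are the authors' mean over the 4 libraries in CPM (the reads of a gene scaled to a common library total). Because a long mRNA collects more reads than a short one, genes are compared by this mean divided by the length of the mRNA, in CPM per kilobase. The mean joins both diets, and 0 of the columns hold a single mouse or diet, so the levels carry no error between mice and no difference between the diets is reported. The depth of each library is unknown for the same reason. The ratios between genes below therefore describe these means and were not tested. A gene that was not listed is not shown to be absent from liver, since the list ends at 7000 genes and leaves out Alb, the albumin gene of hepatocytes.

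A cell enters division when D-type cyclins activate Cdk4 and Cdk6, which release the E2F transcription factors from the retinoblastoma proteins. E2F factors then raise the genes of DNA replication, among them the MCM subunits that are loaded onto origins (licensing) and the E- and A-type cyclins that activate Cdk2. B-type cyclins with Cdk1 drive mitosis, and the anaphase promoting complex with Cdc20 ends it. Most hepatocytes of a healthy adult liver are not dividing. Several genes with the same name stems have other duties, such as Cdk9, Cdk12 and Cdk13 in transcription and the small GTPase Cdc42 in cell polarity and the actin cytoskeleton. All 8 genes of the CDK inhibitors, namely Cdkn1a, Cdkn1b, Cdkn1c, Cdkn2a, Cdkn2b, Cdkn2c, Cdkn2d and Cdkn3, were among those not listed. The inhibitors are thus not described by these data, and the 2 listed genes whose symbols start with Cdkn, Cdkn2aip and Cdkn2aipnl, encode an Arf-binding protein and a relative of it.

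The promoters of several replication genes held the sequence that E2F factors bind. In the RefSeq promoters (GRCm38.p6, 250 bases before to 50 bases after the start site), 50 of the 61 genes had an entry. The spellings TTTCGCGC and TTTGGCGC were searched on both strands, and 7 of the 50 genes (14%) held at least 1 of them, against 1.65% of the 5637 listed genes with a promoter and 0.929% of all 27025 genes with one. These genes were Mcm3, Mcm5, Mcm6, Mcm7, Cdk1, Cdc25a and E2f2. The matches that lie before the start site are printed with their surroundings, since they stand in genes that license origins or drive the cycle. The stretches are on chromosome 8 for Mcm5 (chr8:75109330-75109389, plus strand), on chromosome 1 for Mcm6 (chr1:128359782-128359841 and chr1:128359719-128359778, minus strand), on chromosome 10 for Cdk1 (chr10:69353010-69353069, minus strand) and on chromosome 9 for Cdc25a (chr9:109875486-109875545, plus strand), all in GRCm38.p6. Each is written 5′ to 3′ on the strand of its gene, and capitals mark the motif.
Mcm5: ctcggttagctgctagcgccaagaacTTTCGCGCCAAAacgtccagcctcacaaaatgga
Mcm6, distal: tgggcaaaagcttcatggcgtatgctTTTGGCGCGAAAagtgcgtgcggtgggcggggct
Mcm6, proximal: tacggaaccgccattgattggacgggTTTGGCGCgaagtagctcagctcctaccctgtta
Cdk1: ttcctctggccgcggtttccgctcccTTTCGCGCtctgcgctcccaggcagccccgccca
Cdc25a: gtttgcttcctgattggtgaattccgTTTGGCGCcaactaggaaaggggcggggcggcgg

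In Mcm5 and in the distal stretch of Mcm6 the capitals run over 12 bases, because a match on each strand overlaps the other. The match of Mcm5 starts 153 bases before the start site, those of Mcm6 start 110 and 47 bases before it, that of Cdk1 131 bases and that of Cdc25a 67 bases. The matches of Mcm7, Mcm3 and E2f2 lie after the start site, at bases 16, 38 and 39. A match describes the letters of the window and not a bound factor.

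**Figure D1:**
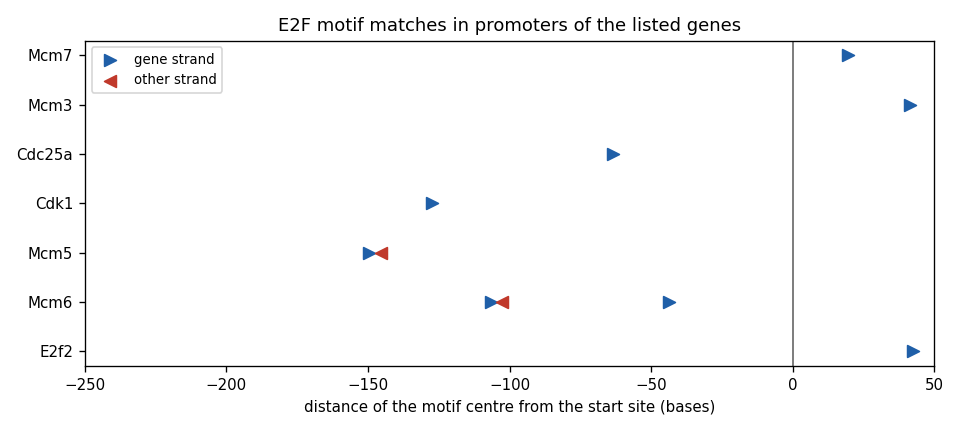
Position of each E2F motif match (TTTCGCGC or TTTGGCGC) in the promoters of the 7 listed genes that hold one, with the distance from the start site in bases on the horizontal axis and the genes ordered by level; triangles pointing right are matches on the strand of the gene and those pointing left on the other strand. Mcm5, Mcm6, Cdk1 and Cdc25a have their matches before the start site, and Mcm7, Mcm3 and E2f2 after it.

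The 61 genes as a whole lay low among the listed genes. Listing depends on the authors' comparison of the diets, for these genes and for all 7000. The values below therefore describe listed genes only, and not all genes of the pathway in liver. Their median was 3.51 CPM per kilobase, against 6.19 CPM per kilobase over all 7000, and their median percentile was 35.7. Of the 61, 24 (39.3%) fell in the lowest 25% of listed genes and 9 (14.8%) in the highest 25%, and 23 lay above the median of all listed genes. A mean under 2 CPM was found for 9 of them (14.8%), against 7.1% of all listed genes. The levels spread 177-fold, from 0.514 CPM per kilobase for E2f8, a repressive E2F factor, to 90.9 CPM per kilobase for Cdc42.

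**Figure D2:**
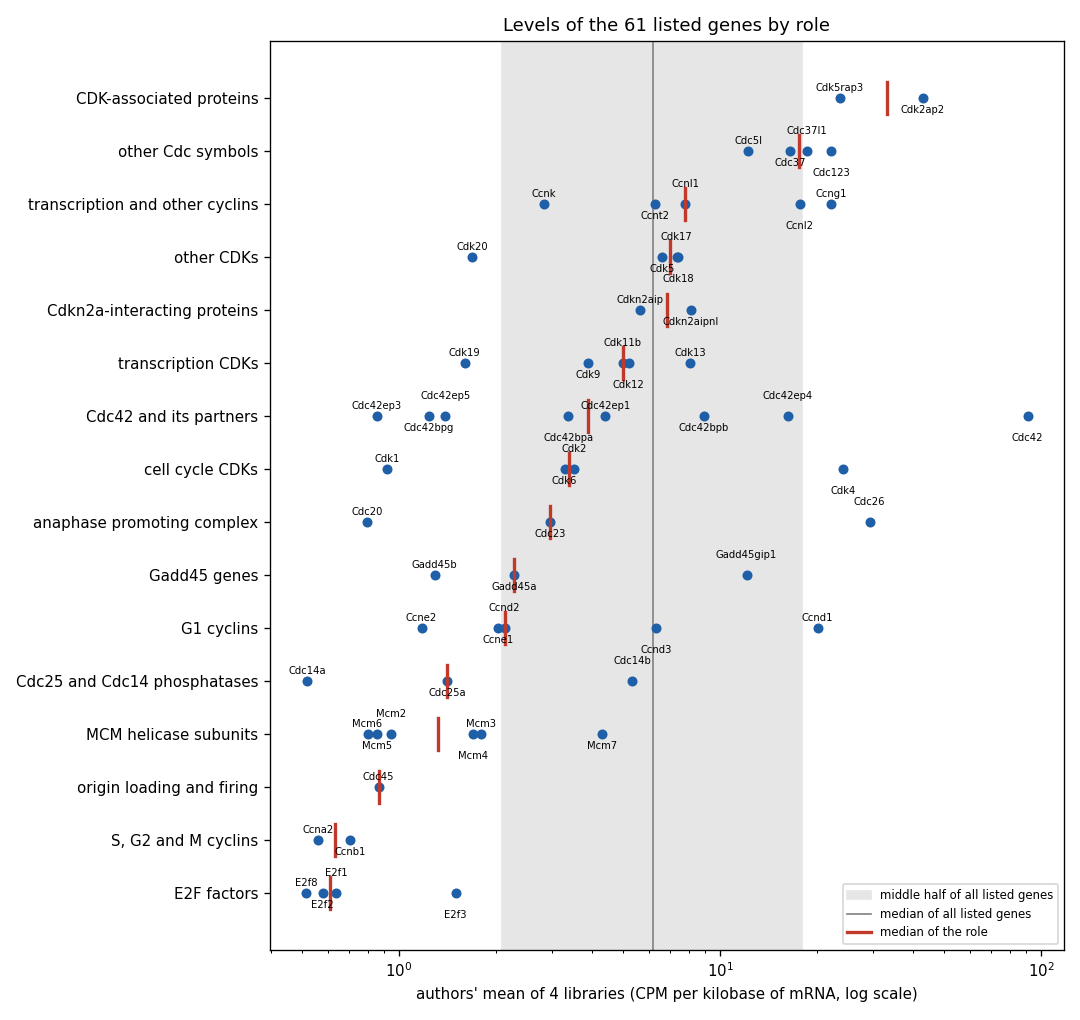
Authors' mean level of each of the 61 listed genes in CPM per kilobase of mRNA (log scale), by role; each dot is a gene, the red bar is the median of the role, the grey line is the median of all 7000 listed genes (6.19) and the grey band runs from their lower to their upper quartile (2.09 to 18.0). The E2F factors, the S, G2 and M cyclins and most MCM subunits lie left of the band, and Cdc42, Cdk2ap2, Cdc26 and Cdk4 are among the genes right of it.

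Among the cyclins of the G1 phase all 5 genes were listed, and Ccnd1 stood far above the rest. Ccnd1 (cyclin D1), on chromosome 7 of mm9 from 152115836 to 152125774 on the minus strand, had a level of 20.1 CPM per kilobase and a mean of 76.5 CPM. Ccnd3 (cyclin D3) followed at 6.34 CPM per kilobase and Ccnd2 (cyclin D2) at 2.13. Cyclin D1 mRNA was thus at 3.18 times the level of cyclin D3 and 9.44 times that of cyclin D2 per kilobase. The E-type cyclins, which act with Cdk2 at the start of replication, were lower, with Ccne1 at 2.03 and Ccne2 at 1.18 CPM per kilobase. Without division by length, Ccnd2 (12.3 CPM) and Ccnd3 (13.4 CPM) were close, because the Ccnd2 mRNA has 5771 bases and the Ccnd3 mRNA 2118.

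The cyclins of the later phases were near the lower end of the list. Ccnb1 (cyclin B1), the partner of Cdk1 in mitosis, had 0.707 CPM per kilobase and a mean of 1.64 CPM. Ccna2 (cyclin A2), which acts in S phase and G2, had 0.560 CPM per kilobase and a mean of 1.57 CPM. The level of Ccnd1 was 36.0 times that of Ccna2. Ccna1, Ccnb2 and Ccnb3 were not listed.

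Among the cell cycle kinases Cdk4 was the highest and Cdk1 the lowest. Cdk4, the partner of the D-type cyclins, on chromosome 10 from 126500590 to 126504976, had 24.1 CPM per kilobase and lay at percentile 80.0 of the listed genes. Its close relative Cdk6 had 3.28 CPM per kilobase, so Cdk4 was at 7.35 times its level. Cdk2 had 3.51 CPM per kilobase, the median of the 61 genes. Cdk1, the mitotic kinase, had 0.917 CPM per kilobase and a mean of 2.62 CPM, and Cdk4 was at 26.3 times its level per kilobase. Cdk7, a subunit of the CDK-activating kinase, was not listed.

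**Figure D3:**
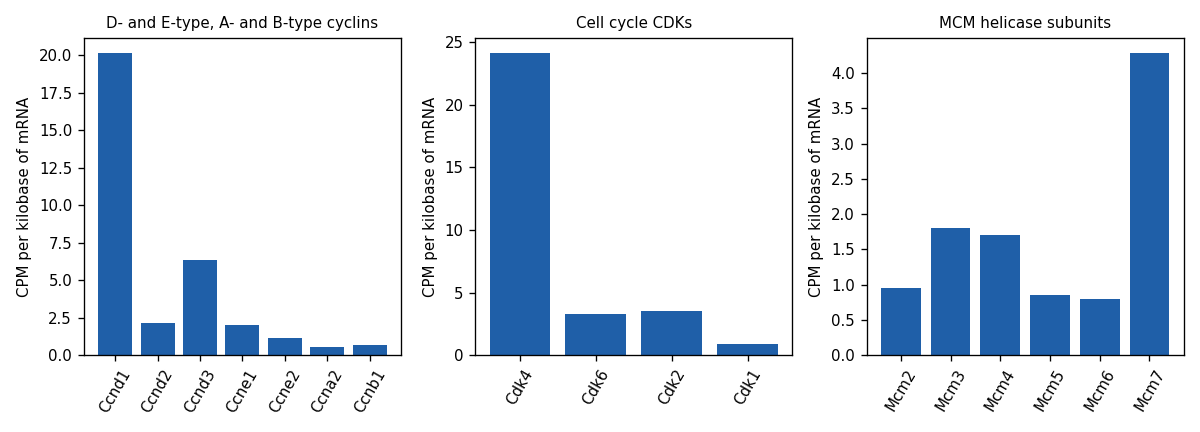
Authors' mean level in CPM per kilobase of mRNA for the G1, S and mitotic cyclins (left), the cell cycle CDKs (middle) and the 6 MCM helicase subunits (right), with a separate vertical scale in each panel and no error bars because no values of single mice were used. Ccnd1 (20.1) and Cdk4 (24.1) stand above the other genes of their panels, and Mcm7 (4.28) above the other MCM subunits.

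All 6 subunits of the MCM helicase, which encircles DNA and unwinds it at the replication fork, were listed. Mcm7, on chromosome 5 from 138605811 to 138613650, was the highest at 4.28 CPM per kilobase. Mcm3 (1.80) and Mcm4 (1.71) came next, with a ratio of 0.950 for Mcm4 over Mcm3 per kilobase. Mcm2 (0.946), Mcm5 (0.856) and Mcm6 (0.799) formed the lower end, and the highest subunit was 5.36 times the lowest. That ratio depends on the length used for Mcm7. At the annotated length nearest to the listed one (2962 in place of 2396 bases) Mcm7 would be at 3.46 CPM per kilobase, still the highest. The protein complex holds these subunits in equal numbers, and their mRNA levels were unequal. Mcm8, Mcm9, Mcm10 and Mcm3ap, which are not part of this ring, were not listed. Cdc45, which joins the helicase when origins fire, had 0.865 CPM per kilobase, within the range of the lower subunits. Cdc6, which loads the ring, and Cdc7, the kinase that fires origins, were not listed.

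The E2F factors had the lowest median of the roles per kilobase, at 0.608. Without division by length their median of 2.32 CPM was above that of the S, G2 and M cyclins (1.61 CPM) and above Cdc45 (1.85 CPM). E2f3, an activator, was the highest at 1.50 CPM per kilobase, 2.36 times the level of E2f1. E2f1 and E2f2, also activators, had 0.637 and 0.579 CPM per kilobase, and E2f8 had 0.514. E2f4, E2f5, E2f6 and E2f7 were not listed.

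Genes of the anaphase promoting complex and the Cdc14 and Cdc25 phosphatases were spread widely in level. Cdc26, a small subunit of the anaphase promoting complex, had 29.2 CPM per kilobase, Cdc23, a core subunit, had 2.96, and Cdc20, the activator that is needed in mitosis, had 0.797. Cdc26 was 36.7 times above Cdc20. Cdc16, Cdc27 and Cdc20b were not listed. Among the phosphatases, Cdc14b had 5.32 CPM per kilobase and Cdc14a 0.518, a ratio of 10.3. Cdc25a, which removes inhibitory phosphates from CDKs, had 1.41 CPM per kilobase, and Cdc25b and Cdc25c were not listed.

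The listed kinases and cyclins of transcription lay higher than Cdk1 (0.917) and Ccnb1 (0.707 CPM per kilobase), the mitotic kinase and cyclin listed. Cdk13 had 8.06 CPM per kilobase, Cdk12 had 5.20, Cdk11b had 4.97, Cdk9 had 3.89 and Cdk19, a kinase of the Mediator complex, had 1.60. The listed Cdk9 mRNA has 3389 bases and the annotated transcript nearest in length 1733, at which its level would be 7.61 CPM per kilobase, above Cdk11b, and Cdk12 would be at 6.75 (5912 in place of 7669 bases), so the order of Cdk9, Cdk11b and Cdk12 depends on the length used. Of their cyclin partners, Ccnl2 (17.7) and Ccnl1 (7.80), cyclins linked to splicing and to Cdk11b, were above Ccnt2 (6.29), a partner of Cdk9, and Ccnk (2.82), the partner of Cdk12 and Cdk13. Ccng1 (cyclin G1), a target of p53, had 22.2 CPM per kilobase and a mean of 77.5 CPM, the highest of the cyclins chosen by symbol on either scale, next to Ccnd1. Ccng2, Ccnh, Ccnt1, Cdk8 and Cdk10 were not listed. In the remaining CDKs, Cdk18 (7.41), Cdk17 (7.32) and Cdk5 (6.61), a kinase best known from neurons, were alike in level, and Cdk20 had 1.69 CPM per kilobase. Cdk14, Cdk15 and Cdk16 were not listed. The CDK-associated Cdk2ap2 (42.8) and Cdk5rap3 (23.7) were both above Cdk4 or close to it, and 5 other genes with such names were not listed (Cdk2ap1, Cdk5r1, Cdk5r2, Cdk5rap1 and Cdk5rap2).

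The genes that share a name stem but act elsewhere held several of the highest levels. Cdc42, on chromosome 4 from 136875611 to 136913635, had a mean of 195 CPM, at percentile 93.1 per kilobase. Its effectors and kinases ran from Cdc42ep4 (16.3) and Cdc42bpb (8.92) through Cdc42ep1 (4.39), Cdc42bpa (3.37), Cdc42ep5 (1.39) and Cdc42bpg (1.24) to Cdc42ep3 (0.854 CPM per kilobase). Cdc42ep2, Cdc42se1 and Cdc42se2 were not listed. Cdc123 (22.2), an assembly factor for translation initiation factor eIF2, Cdc37l1 (18.7), Cdc37 (16.5), a co-chaperone of Hsp90 for kinases, and Cdc5l (12.2 CPM per kilobase), a splicing protein, all lay above the median of all listed genes. Cdc34, Cdc34-ps, Cdc40 and Cdc73 were not listed. The level of Cdc5l is uncertain, since 34.5% of the 50-base windows of its mRNA also occur in the annotated gene Gm9049 and the authors kept unique alignments only. Among the 61 genes, 57 had no such window in the mRNA of another gene, and for Cdc123, E2f1 and Mcm5 the share was at most 1.29%.

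Gadd45a and Gadd45b, stress-induced genes of growth arrest, had 2.29 and 1.29 CPM per kilobase. Gadd45gip1, a protein of the mitochondrial ribosome that binds Gadd45, had 12.1, which is 5.29 times Gadd45a. Gadd45g was not listed. Cdkn2aipnl had 8.10 and Cdkn2aip 5.62 CPM per kilobase.

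Neighbouring genes of the pathway, which the choice by symbol does not take, lay within the range of the 61 genes. Of 9 pocket proteins and E2F partners, 6 were listed with a median of 2.39 CPM per kilobase. Rbl2 (p130), the pocket protein of resting cells, was the highest at 10.4 and Rbl1 (p107), its relative of cycling cells, the lowest at 0.595, with Rb1 at 2.20 CPM per kilobase. Of the 6 genes of the origin recognition complex, Orc5 (9.50) and Orc3 (5.45) were listed. Of 8 licensing and firing partners, 5 were listed, from Pcna (27.3), the sliding clamp of DNA polymerases, to Dbf4 (1.36), the activator of Cdc7. Of 12 genes of the ubiquitin arm, 8 were listed, from Anapc5 (24.9) to Anapc10 (2.19), both subunits of the anaphase promoting complex. Of 8 genes of the p53 arm and the checkpoint kinases, 3 were listed, namely Mdm4 (7.05), Btg1 (6.90) and Btg2 (2.02). Of 6 further cyclins, Ccni (44.3) and Ccnc (8.99 CPM per kilobase) were listed.

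Markers of cell types were set beside these levels. Markers of cycling cells were low, with 5 of 8 listed and a median of 0.414 CPM per kilobase, from Cenpf (0.179) to Top2a (1.11), and Mki67 (Ki-67) had 0.774. These levels were of the order of those of Ccnb1, Ccna2, Cdk1 and Cdc20. The labelled tissue was seen in the hepatocyte markers, of which 3 of 6 were listed, Apoa1 at 7619, Cyp2e1 at 4180 and Serpina1c at 1290 CPM per kilobase. Liver also holds other cells. Of the Kupffer cell markers 5 of 6 were listed (median 36.8), from Adgre1 (11.0, under its older name Emr1) to Clec4f (74.8). Of the markers of sinusoidal endothelium 4 of 6 were listed (median 15.7), from Pecam1 (8.52) to Clec4g (76.9). Of the stellate cell markers 6 of 6 were listed (median 8.44), from Col1a1 (1.03) and Des (1.67) to Dcn (98.3 CPM per kilobase). Of the lymphocyte markers 1 of 6 was listed (Ptprc, 3.93 CPM per kilobase), and of the 4 cholangiocyte markers 0 were. Which markers are listed depends on the authors' comparison of the diets, so these counts do not measure how many cells of a type were present. Which of these cells carried the mRNA of a given cyclin or CDK was not tested.

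The mRNAs of the 61 genes were compared with the GENCODE vM1 annotation, whose NCBIM37 assembly is that of mm9, and 51 had an annotated transcript within 10% of the listed length. In these the 3′ untranslated part took a median of 45.5% of the mRNA, against 35.7% over the 5997 listed genes matched in this way, and the median coding part was 1356 against 1428 bases. The share was 79.9% in Ccnd2 (4556 bases) and 71.6% in Ccnd1 (2676 bases), and 42.9% in Ccnd3. In E2f3 it was 70.8% and in Cdk1 64.6%. In the 5 MCM subunits with such a transcript (all but Mcm7) it ran from 11.9% in Mcm6 to 32.6% in Mcm5, and it was 6.0% in Cdc45 and 3.5% in Cdc20. The motif ATTTA, which occurs in elements that shorten the life of an mRNA, had a median of 1.71 copies per kilobase of this part, against 1.26 in the listed genes.

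**Figure D4:**
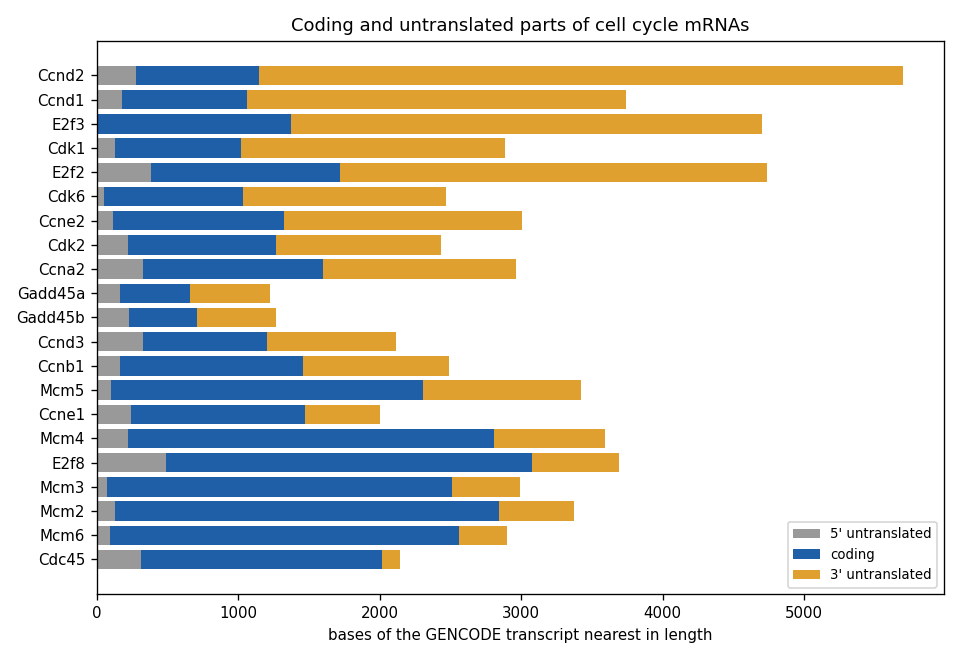
Length in bases of the 5′ untranslated, coding and 3′ untranslated parts of the annotated transcript nearest in length to the listed mRNA, for the matched genes of the G1, S and mitotic cyclins, the cell cycle CDKs, the MCM subunits, Cdc45, the E2F factors and the Gadd45 genes, ordered by the share of the 3′ untranslated part. Ccnd2 and Ccnd1 are at the top with 79.9% and 71.6%, and Mcm6 (11.9%) and Cdc45 (6.0%) are at the bottom; the annotated E2f3 transcript holds no 5′ untranslated part.

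Genes with an E2F motif in the promoter had the lower median. It was 0.917 CPM per kilobase (7 genes), against 5.20 CPM per kilobase for the 43 genes without it. The 43 genes include Cdc42 and others that act outside the cycle, and 4 of the 7 are MCM subunits. Motif and role can therefore not be told apart in this difference. Among the MCM subunits, Mcm2 (0.946), which lacks a match, lay below Mcm7 (4.28) and Mcm3 (1.80) and above Mcm5 (0.856) and Mcm6 (0.799), which hold one. Over all listed genes with a promoter the medians were 5.12 with and 6.42 CPM per kilobase without the motif. By role, 4 of the 5 MCM subunits with a promoter entry held the motif, 1 of the 4 cell cycle CDKs, 1 of the 4 E2F factors and 1 of the 3 phosphatases. It was found in 0 of the 34 genes of the other roles. Only the exact spellings TTTCGCGC and TTTGGCGC were searched, so a promoter without a match is not shown to lack an E2F site. The CHR element (TTTGAA), known from genes of mitosis, was present in 24% of the promoters, against 14.6% of the listed genes and 20.2% of all genes, so its share lay near that of all genes. Its 12 genes were Cdk1, Cdc20, Cdc14a, Cdc45, Mcm2, E2f2, E2f3 and E2f8 and also Cdc37l1, Cdc42bpa, Cdc42ep4 and Cdc42ep5, which act outside the cycle. The CCAAT box (CCAAT) was present in 64%, against 43.8% of the listed and 41.1% of all genes. For both of these motifs, too, the members with a match had the lower median. It was 0.932 against 5.26 CPM per kilobase for the CHR element and 3.10 against 5.41 for the CCAAT box. The sets overlap, since all 7 genes with an E2F motif also hold a CCAAT box, and Cdk1 and E2f2 also hold a CHR element. These differences are therefore not separate from each other, and whether any motif bears on level was not tested. Over all listed genes with a promoter the medians were 5.87 with and 6.45 CPM per kilobase without the CHR element. For the CCAAT box the order was reversed there, with 6.85 against 5.97 CPM per kilobase. The 11 genes with no promoter entry were Ccna2, Ccnd1, Ccnd2, Ccne2, Cdc23, Cdc42bpg, Cdk5, Cdk17, Cdk19, Gadd45gip1 and Mcm4.

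The genes lay on 18 chromosomes, with 7 of them on chromosome 4 and 6 on chromosome 10. A protein-coding head-to-head partner that starts at most 1000 bases upstream was annotated for 3 of the 61 genes (4.92%). The share was 10.5% among the 6770 listed genes found in the annotation. Pairs with overlapping starts and non-coding partners were not counted. Cdc26 starts 155 bases from Prpf4, Cdk5 307 bases from Slc4a2, and Mcm4 466 bases from Prkdc, the catalytic subunit of DNA-dependent protein kinase. Slc4a2 (7.86) and Prkdc (2.09 CPM per kilobase) were close in level to Cdk5 (6.61) and Mcm4 (1.71), and Prpf4 was not listed.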

How the data were processed

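RNA was measured by RNA-Seq in liver libraries of 2 mice per diet, grouped by the diet in the labels. Ribosomal RNA was removed, and stranded libraries were sequenced on a HiSeq 2000. The authors aligned reads with Bowtie to RefSeq mRNAs of mm9 (1 longest isoform per gene), kept unique alignments with up to 2 mismatches, and ran edgeR on genes above 1 CPM in at least 3 samples. The sources used here do not give the versions of these tools. The deposited table holds for each gene the mRNA length in bases and, as the authors made it with edgeR, its mean CPM over the 4 libraries as a log2 value. Any small count that the authors' tool added before taking the log2 would raise the lowest levels. Its 3 other columns hold the authors' own comparison of the diets (log2 fold change, p-value and FDR), and they were not used. Rows follow the order of that p-value and end at 7000, so which genes are listed depends on that comparison, and shares of a group that are listed do not measure expression.

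The log2 means were converted to CPM and divided by length in kilobases. A percentile is the share of listed genes at or below a value. The planned count test of the diets needs counts for single mice, of which there were 0 columns, and was not run. Depth per library, intervals between mice and diet differences are therefore not given. Genes were named by role: every member of a role of 6 or fewer, the highest and lowest of larger ones, and the highest and lowest of each neighbouring list. Others were named as well, after their values were seen. The members and lists were chosen with earlier results of these data known. Positions, exons and transcript parts come from GENCODE vM1 (NCBIM37), in which all 61 genes were found. Promoters come from RefSeq (GRCm38.p6), matched by symbol or synonym for 50 of 61 genes and 5637 of 7000, and a gene holds a motif if any of its promoters does. Shared sequence was counted in 50-base windows of GENCODE mRNAs. Scripts were tested on simulated data. Figures were drawn with matplotlib 3.10.9 and values computed with pandas 2.3.3, numpy 2.4.6 and scipy 1.17.1 in Python 3.11.15. The alternatives concerned length, background, symbols and motif, and their effect is given in the closing section.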

Additional observations from a re-analysis of the deposited data

How the results depend on the processing

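The median percentile of the 61 listed genes, of which several act outside the cell cycle, was below 50 in the 4 alternatives run for it. Their median of 3.51 CPM per kilobase was 3.28 with the longest GENCODE transcript as length and 2.89 with the 48 genes whose symbols are those of cyclins, CDKs, MCM, Cdc, E2F and Gadd45 genes proper, and the median was 12.2 CPM without division by length. Their median percentile of 35.7 was 35.5 among the 6981 listed genes with a mean of at least 1 CPM, 37.9 among the 6453 genes of at least 1000 bases, 39.0 without division by length and 31.3 with those 48 genes alone. The 48 genes were chosen by the form of their symbols and still include genes that act outside the cell cycle, such as Cdc42, Cdc123 and Cdc37. The share of promoters with an E2F motif was 14%, 8% in the bases before the start site alone (1.44% of listed genes) and 10% with TTTGGCGC alone (1.01%). For the 10 genes whose listed length differs by more than 10% from every annotated transcript, the level at the length of the nearest one, an alternative chosen after seeing the data, was 0.695 (Gadd45gip1) to 1.96 times (Cdk9) the printed one, and it was 3.46 CPM per kilobase for Mcm7. Leaving out each mouse in turn was not run, because no column holds a single mouse, and for this reason it is not known whether 1 library decides a value. No paired analysis was possible because the columns carry no replicate numbers and the values come from no test. With the depth unknown, the counting error of genes near 1 CPM cannot be given.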
